A study of Mus musculus with 6 samples.

Results

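The genes described are 10 members of the transforming growth factor beta (TGF-beta) and activin system of the mouse lung: the ligand genes Tgfb1, Tgfb2 and Tgfb3, the activin A subunit gene Inhba, the latent binder genes Ltbp1, Ltbp2, Ltbp3 and Ltbp4, and the receptor genes Tgfbr1 and Tgfbr2. They were chosen by symbol from the 27998 genes of the deposited count table, and all 10 were found. The symbol Ltbp4 stands on 2 rows of the table, of which 1 holds no UMI and was not used.

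TGF-beta is secreted in a latent form, in which the mature ligand stays wrapped in its own propeptide. The propeptide is in turn bound by a latent TGF-beta binding protein, which tethers it to fibrillin-rich matrix, or by the cell-surface anchors encoded by Lrrc32 and Nrros. Integrins and proteases release the ligand, which binds the type II receptor (Tgfbr2). That receptor then phosphorylates the type I receptor (Tgfbr1), and the signal runs through Smad2 and Smad3. In the lung the pathway is best known for driving matrix production by fibroblasts during fibrosis.

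The lungs were dissociated, sorted and read cell by cell in droplets, at transcript 3′ ends, with unique molecular identifiers (UMIs, tags that count each captured RNA molecule once). All mice carried SMA-GFP (a smooth muscle actin reporter), Tbx4cre and RosaTdTomato, so that TdTomato (Tm) marks cells with a history of Cre expression from Tbx4. The labels name 6 samples without replicates: day 21 of bleomycin treatment, which injures lung tissue and is followed by scarring, with 1 sample each for SMA+Tm+ cells, for SMA-Tm+ cells and for SMA-Tm- cells, and the same 3 gates from normal mice at day 0. Cells were sorted as negative for Epcam, CD31 and CD45, and the labels do not say how many mice were pooled per sample, nor their age.

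The deposited table holds the cells of all samples together. Each barcode carries a number from 1 to 6 as its suffix, and nothing in the column names ties a suffix to a labelled sample, so no day or gate was compared and the table was treated as 1 pooled sample. No test was possible, and no p-value is given. Of 10410 barcodes, 9994 showed at least 500 genes with no more than 10% of UMIs mitochondrial, with a median of 2718 UMIs and suffix medians from 1793.5 to 3649.5. The suffixes stand apart from each other: Xist reached 1463 to 1922 CPM (UMIs of a gene per 1000000 UMIs) in suffixes 4 to 6 and 0.647 to 6.46 in suffixes 1 to 3, while the summed level of 4 Y-linked genes was 0 to 1.14 CPM in suffixes 4 to 6 and 302 to 323 CPM in suffixes 1 to 3. There were 55 barcode sequences found under more than 1 suffix, which 104 of the kept cells carry.

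Cell classes were gated on UMIs of genes outside the 10 members. The gates gave 46 mural cells (with UMIs of 2 or more of Higd1b, Cox4i2 and Notch3), 99 mesothelial cells (2 or more of Upk3b, Msln, Wt1, Lrrn4 and Upk1b), 591 endothelial cells (2 or more UMIs of Pecam1 and Cdh5 together), 2450 mesenchymal cells (3 or more UMIs of Col1a2 and Col3a1 together) and 4351 leukocytes (1 or more UMI of Ptprc). Leukocytes thus made up 43.5% of the kept cells and endothelial cells 5.91%, although the sort was labelled as CD45- and CD31-. An epithelial gate (2 or more of Epcam, Cdh1, Cldn18, Cldn3 and Elf3) held 93 cells, which are not described here. A further 270 cells passed conflicting gates and were set aside as mixed, and 2094 passed none. All 6 mural markers were detected in the mural gate, with a summed level of 5991 CPM against 113 in the mesenchymal gate, and all 6 mesothelial markers in the mesothelial gate, at 3644 CPM against 26.2 CPM. Both lists include the genes used for gating, so that these sums describe the gates. The endothelial gate also held 71 cells in a cluster led by Sftpc, Sftpb and Ear1 and 42 B cell-like cells.

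Levels are CPM of the class, its cells summed. Intervals are exact 95% Poisson intervals for a level and exact conditional 95% intervals for a ratio. They cover counting error only, not differences between mice. A class was called higher or lower at a 2-fold ratio, for genes with 10 or more UMIs in both classes together. Counts per molecule depend on how well each transcript's 3′ end is captured, so that levels are compared between classes and not between genes.

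In the genome build GRCm38 (mm10), Tgfb1 lies on chromosome 7 from 25687002 to 25705077 on the plus strand and Tgfb2 on chromosome 1 from 186622792 to 186705989 on the minus strand. These ligand genes lay on opposite sides of the mesenchymal and leukocyte comparison below, and the 250 bases before their annotated starts are printed to show the letters on which they differ. The windows come from RefSeq (GRCm38.p6) at chr7:25686752-25687001 for Tgfb1 and chr1:186705990-186706239 for Tgfb2, each 5′ to 3′ on the gene's strand. Capitals mark matches to GGGCGG (the GC box), TATAAA (the TATA box) or CAGACA (a Smad-binding word), searched on both strands.
Tgfb1: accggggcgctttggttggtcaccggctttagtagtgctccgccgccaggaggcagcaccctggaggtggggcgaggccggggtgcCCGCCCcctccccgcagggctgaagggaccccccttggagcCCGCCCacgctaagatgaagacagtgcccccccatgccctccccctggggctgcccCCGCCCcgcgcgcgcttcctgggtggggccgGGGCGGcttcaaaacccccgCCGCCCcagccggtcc
Tgfb2: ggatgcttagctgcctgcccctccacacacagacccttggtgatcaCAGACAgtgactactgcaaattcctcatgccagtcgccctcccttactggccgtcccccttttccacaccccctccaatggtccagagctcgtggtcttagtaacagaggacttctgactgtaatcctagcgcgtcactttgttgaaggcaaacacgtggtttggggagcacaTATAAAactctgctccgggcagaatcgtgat
The Tgfb1 window had a GC content of 75.2% and 5 matches to GGGCGG, with none to TATAAA or CAGACA. The Tgfb2 window had a GC content of 53.6%, 1 match to TATAAA, 1 to CAGACA and none to GGGCGG. Neither window held TGANTCA (the AP-1 word). No motif overlaps another in these windows. Among 32851 RefSeq promoter windows of the same length, 32.7% held GGGCGG, 12.4% TATAAA, 17.1% CAGACA and 6.75% TGANTCA. Such matches describe letters and do not show that a factor binds.

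The 3 TGF-beta ligand genes divided between lineages. Tgfb1 stood highest in leukocytes and endothelium, Tgfb3 in mesenchymal cells and Tgfb2 in the mural and mesothelial gates (plot of levels by class). All 4 Ltbp genes were near 0 in leukocytes as a whole and high in stroma, with Ltbp2 highest in mural cells. The receptor genes were spread over every lineage, Tgfbr2 being lowest in the stroma in ductal myofibroblast-like cells and highest in Col13a1 fibroblast-like cells.

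**Figure D1:**
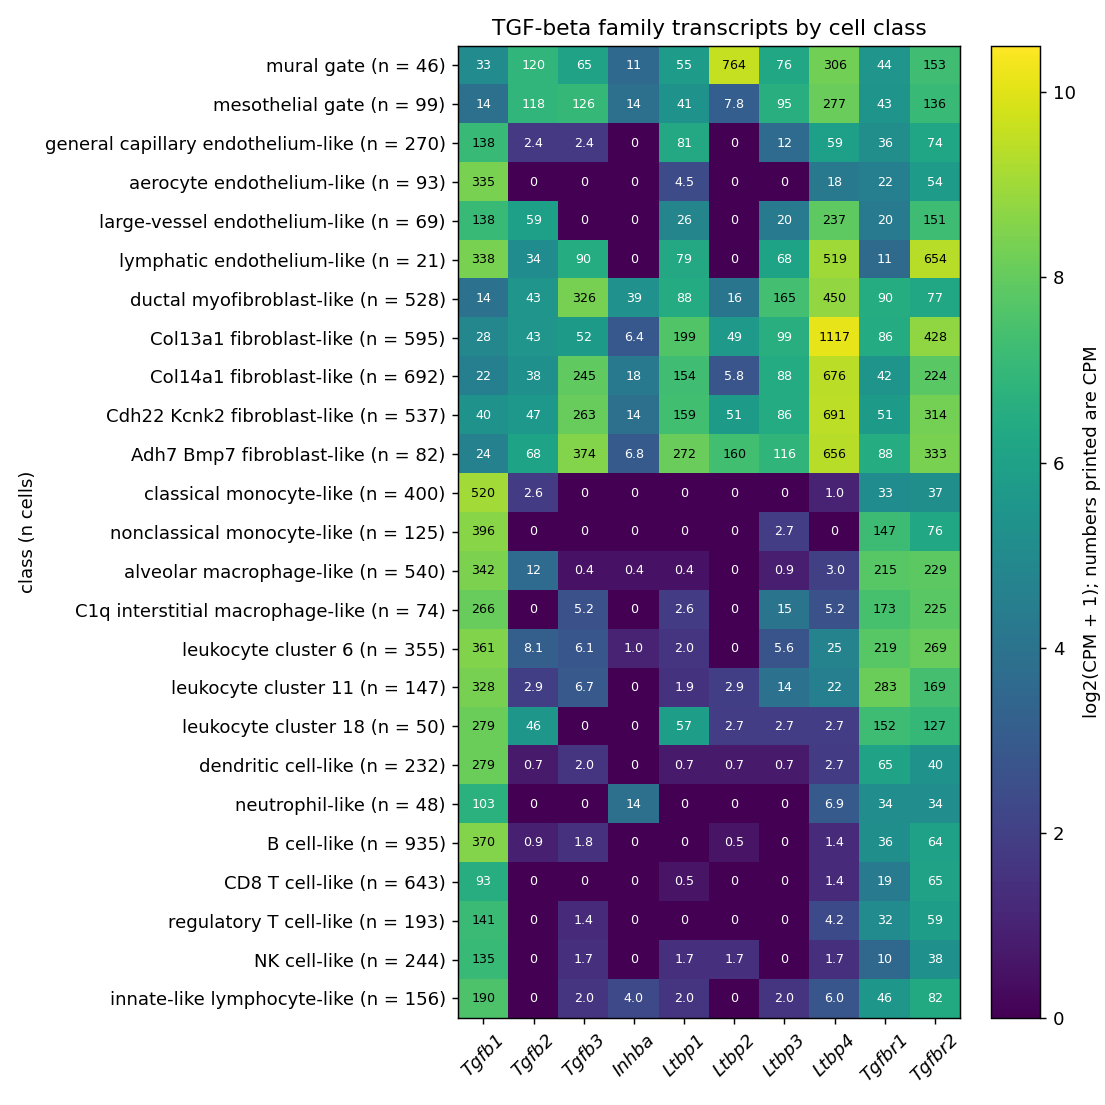
Level of each member (columns) in each cell class (rows, with the number of cells), coloured by log2(CPM + 1) with the CPM printed in each field. Tgfb1 is at 93 to 520 CPM in the leukocyte rows and at 14 to 40 CPM in the mesenchymal rows, and the Ltbp columns are at or near 0 in most leukocyte rows.

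Tgfb1, the isoform best known from immune cells and from wound repair, stood at 27.5 CPM in mesenchymal cells (interval 24.0 to 31.4, 219 UMIs), against 298 CPM in leukocytes (290 to 306, 5172 UMIs). The log2 ratio was -3.44 (-3.64 to -3.24). The suffixes gave 0 to 76.5 CPM in mesenchymal cells and 237 to 390 CPM in leukocytes, so the 2 ranges did not overlap. A Tgfb1 UMI was seen in 7.18% of mesenchymal cells and 55.5% of leukocytes, and in 2.21% and 24.2% of cells thinned to 1000 UMIs. Leukocyte transcripts were present in the mesenchymal gate: Lyz2 stood there at 2.09% of its leukocyte level, Tyrobp at 1.83% and Cd79a at 0.293%, while Tgfb1 stood at 9.22%. Their part in the mesenchymal Tgfb1 level was not tested.

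Among leukocyte classes Tgfb1 was highest in classical monocyte-like cells at 520 CPM (400 cells). These exceeded nonclassical monocyte-like cells at 396 CPM by a log2 ratio of 0.40 (0.14 to 0.66). B cell-like cells at 370 CPM, a cluster led by Mt2, Mt1 and Ctsk (cluster 6, 355 cells) at 361 CPM and alveolar macrophage-like cells at 342 CPM followed, and from nonclassical monocyte-like cells downward these neighbours did not differ beyond counting error. The lower end was held by NK cell-like cells at 135 CPM, a cluster of 60 cells led by Jchain, Mzb1 and Zbtb32 at 131 CPM, neutrophil-like cells at 103 CPM and CD8 T cell-like cells at 93.3 CPM. Over the suffixes with 20 or more cells of the class, B cell-like cells spanned 208 to 486 CPM, alveolar macrophage-like cells 291 to 405 CPM and classical monocyte-like cells 442 to 587 CPM.

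In endothelium Tgfb1 stood at 197 CPM (174 to 221), against 27.5 CPM in mesenchymal cells, a log2 ratio of 2.84 (2.58 to 3.10). Every suffix gave a higher level in endothelium, with log2 ratios from 1.22 to 4.26, where suffix 2, whose 41 mesenchymal cells held no Tgfb1 UMI, enters at the floor of 3 UMIs. B cell markers were also present in the endothelial gate (6 of 6 detected, summed 370 CPM against 1112 CPM in leukocytes). Without the Sftpc-led and the B cell-like clusters the log2 ratio was 2.87. Within endothelium, lymphatic-like cells (21 cells) at 338 CPM and aerocyte-like cells, the gas-exchange capillary type (93 cells), at 335 CPM did not differ beyond counting error. Both stood above large-vessel-like and general capillary-like cells, each at 138 CPM, and the log2 ratio of aerocyte-like over large-vessel-like cells was 1.28.

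Tgfb3, an isoform made largely by mesenchyme, showed the opposite distribution. It stood at 226 CPM in mesenchymal cells (216 to 237, 1803 UMIs), against 2.02 CPM in leukocytes (1.41 to 2.81, 35 UMIs). The log2 ratio was 6.81 (6.33 to 7.34), and mesenchymal cells held 85.2% of all Tgfb3 UMIs of the kept cells while making up 23.0% of all UMIs. In leukocytes Tgfb3 stood at 0.892% of its mesenchymal level, and the fibroblast transcripts Col1a1, Dcn and Bgn at 0.268%, 0.407% and 0.469% of theirs. Of the 35 leukocyte Tgfb3 UMIs, 23 lay in suffix 4. Endothelium had 7.28 CPM, against 226 CPM in mesenchymal cells (log2 ratio -4.96). The mural gate had 65.5 CPM (24.0 to 142.5, 6 UMIs) and the mesothelial gate 126 CPM (97.3 to 161).

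Mesenchymal Tgfb3 differed between suffixes. It stood at 203 CPM in suffix 1 (537 cells) and 239 CPM in suffix 4 (1776 cells), and at 28.5, 38.2, 75.4 and 34.8 CPM in suffixes 2, 3, 5 and 6, which hold 41, 33, 35 and 28 mesenchymal cells. The subtypes were unevenly spread over these suffixes: 26 of the 35 mesenchymal cells of suffix 5 and 18 of the 28 of suffix 6 were Col13a1 fibroblast-like, the subtype with the lowest Tgfb3. The Col14a1 fibroblast-like cells had 227 CPM in suffix 1, 52.5 CPM in suffix 2 (21 cells) and 263 CPM in suffix 4. The part of subtype composition in the suffix difference was not tested.

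**Figure D2:**
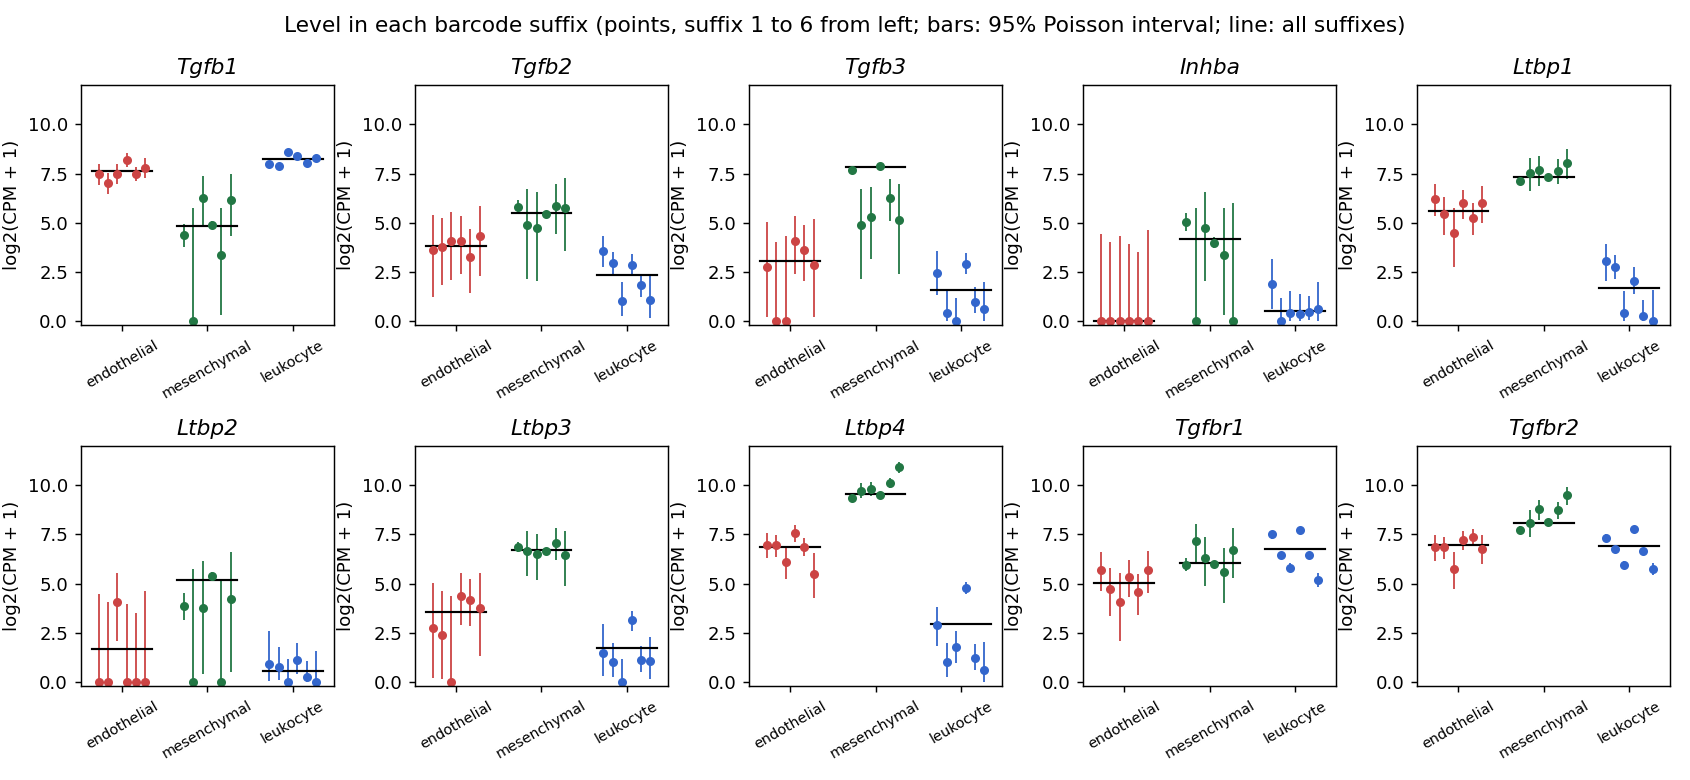
Level of each member, log2(CPM + 1), in endothelial, mesenchymal and leukocyte gates, with 1 point per barcode suffix (1 to 6 from left to right), 95% Poisson intervals as bars and the level over all suffixes as a line. Leukocyte Tgfb1 lies between 237 and 390 CPM in the 6 suffixes, above every mesenchymal point, and mesenchymal Tgfb3 is above 200 CPM in suffixes 1 and 4 only.

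Tgfb2, an isoform known from epithelial-mesenchymal signalling in development, stood at 44.2 CPM in mesenchymal cells (39.7 to 49.1), against 4.15 CPM in leukocytes (log2 ratio 3.41, 3.04 to 3.80). It was higher in the mural gate at 120 CPM (59.9 to 215, 11 UMIs in 46 cells), against 44.2 CPM in mesenchymal cells (log2 ratio 1.44, 0.43 to 2.30). All 11 of those UMIs came from suffixes 4 and 6, and without suffix 4, which holds 32 of the 46 cells, the log2 ratio was under 2-fold at 0.69. Keeping double-gated cells gave 0.35. The mesothelial gate had 118 CPM (90.5 to 152), against 44.2 CPM in mesenchymal cells (log2 ratio 1.42, 1.00 to 1.82). That ratio rested on few cells: mesothelial Tgfb2 was 422 CPM in suffix 2 (15 cells) and 54.7 CPM in suffix 4 (60 cells), where the log2 ratio was 0.37. Without suffix 2 the mesothelial log2 ratio was 0.80, under 2-fold. Endothelium had 13.1 CPM, of which large-vessel-like cells reached 59.2 CPM (9 UMIs) and lymphatic-like cells 33.8 CPM (3 UMIs). Among leukocytes the highest level, 46.0 CPM (17 UMIs), was in a cluster of 50 cells led by Saa3, Prg4 and Alox15, above alveolar macrophage-like cells at 11.6 CPM by a log2 ratio of 1.99.

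Inhba was sparse, with 182 UMIs in the kept cells. Its level was 17.2 CPM in mesenchymal cells (14.4 to 20.3), against 0.461 CPM in leukocytes (8 UMIs), a log2 ratio of 5.22 (4.20 to 6.46). No Inhba UMI was found in 591 endothelial cells. With a floor of 3 UMIs over the class in place of 0, endothelium was 7.88-fold lower than mesenchymal cells (log2 ratio -2.98). Alternatives gave log2 ratios from -3.73 to -2.41. The mural gate had 1 UMI and the mesothelial gate 7.

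The make-up of the TGF-beta ligand UMIs (Tgfb1, Tgfb2 and Tgfb3 together) therefore differed by class. Tgfb1 made up 98.0% of them in leukocytes (exact binomial interval 97.6 to 98.3%) and 90.6% in endothelium (86.7 to 93.7%). Tgfb3 made up 75.9% in mesenchymal cells (74.2 to 77.7%). Suffixes 1 and 4 held 238 and 1550 of those 1803 Tgfb3 UMIs. In suffixes 2, 3, 5 and 6 mesenchymal cells had 2, 3, 8 and 2 UMIs of Tgfb3. Beside these stood 0, 6, 1 and 4 of Tgfb1 and 2, 2, 6 and 3 of Tgfb2, so the share does not hold in each suffix. Shares also depend on how well each gene is captured and are compared between classes only. In the mesothelial gate Tgfb2 and Tgfb3 made up 45.9% and 48.9%, and in the mural gate Tgfb2 made up 55.0% of only 20 UMIs (31.5 to 76.9%). Keeping double-gated cells by priority moved the mural over mesenchymal log2 ratio of Tgfb1 to 1.43, against 0.25 without them, and that of Tgfb2 to 0.35, so that this make-up depends on how such cells are treated. Col13a1 fibroblast-like cells stood apart from the other mesenchymal subtypes with 22.6% Tgfb1, 34.9% Tgfb2 and 42.5% Tgfb3, against 75.1 to 85.0% Tgfb3 in the 4 others.

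**Figure D3:**
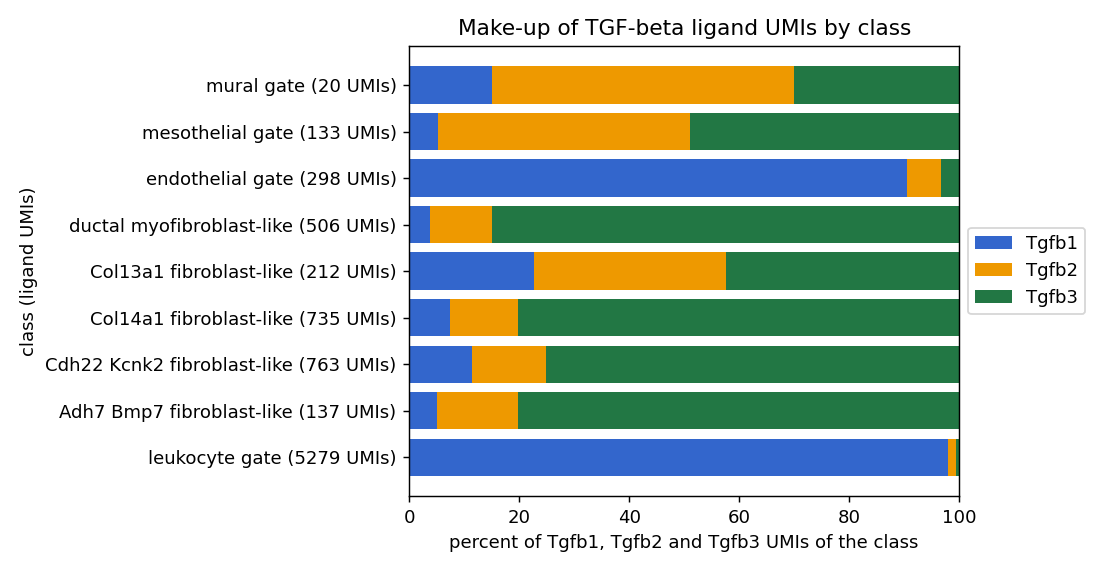
Percent of the Tgfb1, Tgfb2 and Tgfb3 UMIs of each class (x axis) that belong to each gene, with the total ligand UMIs of the class beside its name. Tgfb1 fills 98.0% of the leukocyte bar and 90.6% of the endothelial bar, and Tgfb3 fills 85.0% of the ductal myofibroblast-like bar and 42.5% of the Col13a1 fibroblast-like bar.

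All 4 latent binder genes were higher in mesenchymal cells than in leukocytes. Ltbp4, whose product binds latent TGF-beta1 and is needed for elastic fibre assembly, stood at 735 CPM in mesenchymal cells (716 to 754), against 6.75 CPM in leukocytes (log2 ratio 6.77). Ltbp1, the best-studied carrier of latent TGF-beta, stood at 158 CPM in mesenchymal cells, against 2.19 CPM in leukocytes (6.17). Ltbp3, another carrier of latent TGF-beta, stood at 103 CPM in mesenchymal cells, against 2.31 CPM in leukocytes (5.48). Ltbp2, which binds fibrillin but not latent TGF-beta, stood at 35.8 CPM in mesenchymal cells, against 0.461 CPM in leukocytes (6.28). A UMI of Ltbp4 was seen in 80.5% of mesenchymal cells and 2.46% of leukocytes, and in 49.7% and 0.466% of cells thinned to 1000 UMIs. Ltbp1, Ltbp3 and Ltbp4 were higher in mesenchymal cells in each of the 6 suffixes. Ltbp2 was higher beyond counting error in suffixes 1 and 4, with 16 and 267 mesenchymal UMIs, against 1 and 4 in leukocytes. In suffixes 3 and 6 it had 1 mesenchymal UMI each, against 0 in leukocytes, which is within counting error. The mesenchymal cells of suffixes 2 and 5 held no Ltbp2 UMI, against 2 and 1 in leukocytes. The leukocyte levels were 0.918 to 2.23% of the mesenchymal ones, above the 0.268 to 0.469% seen for Col1a1, Dcn and Bgn. Suffix 4, with 1776 of the 2450 mesenchymal cells and 616 of the 4351 leukocytes, held many of these UMIs. It had 92 of 117 for Ltbp4, 27 of 40 for Ltbp3, 11 of 38 for Ltbp1 and 4 of 8 for Ltbp2. Leukocyte Ltbp4 was 26.5 CPM there and 0.545 to 6.39 CPM in the other suffixes. The part of stray RNA in the leukocyte levels was not tested. The Saa3 cluster was an exception for Ltbp1, with 56.8 CPM (21 UMIs).

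Mural cells differed from other stroma in Ltbp2. It stood at 764 CPM in the mural gate (595 to 965, 70 UMIs), against 35.8 CPM in mesenchymal cells, a log2 ratio of 4.42 (4.02 to 4.80). A UMI was seen in 71.7% of mural cells and 6.49% of mesenchymal cells, and the 46 mural cells held 16.2% of all Ltbp2 UMIs while making up 0.264% of all UMIs. Mural Ltbp2 was 552 CPM in suffix 1 (8 cells), 779 CPM in suffix 4 (32 cells) and 1026 CPM in suffix 6 (4 cells). The mural levels of Ltbp4 at 306 CPM and Ltbp1 at 54.6 CPM (5 UMIs) were lower than the mesenchymal levels of 735 and 158 CPM (log2 ratios -1.27 and -1.53), both under 2-fold without suffix 4.

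Endothelium had less of every binder than mesenchyme. Ltbp4 stood at 116 CPM in endothelium, against 735 CPM in mesenchymal cells (-2.66). Ltbp1 stood at 48.0 CPM in endothelium, against 158 CPM in mesenchymal cells (-1.72). Ltbp3 and Ltbp2 had 15 and 3 endothelial UMIs. Endothelial types differed among themselves, with Ltbp4 at 636 CPM (30 UMIs) in an unnamed cluster of 25 cells that has Ltbp4 among its leading genes, 519 CPM in lymphatic-like cells, 237 CPM in large-vessel-like cells, 59.3 CPM in general capillary-like cells and 17.8 CPM in aerocyte-like cells, while Ltbp1 was 80.6 CPM in general capillary-like cells and 4.46 CPM in aerocyte-like cells. The mesothelial gate had Ltbp3 at 95.02 CPM, against 103 CPM in mesenchymal cells (log2 ratio -0.12, -0.57 to 0.30), and Ltbp4 at 277 CPM, against 735 CPM in mesenchymal cells (-1.41).

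Overlapping annotation touches some of these genes. The last 1000 bases of Tgfb3 overlap Ttll5 on the opposite strand, and those of Inhba an antisense gene, and the sources used here do not state whether counting used strand. Ttll5 stood at 10.4 CPM in mesenchymal cells and 4.44 CPM in leukocytes, a far flatter pattern than that of Tgfb3.

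The receptor genes were expressed in every lineage. Tgfbr2, the ligand-binding type II receptor, stood at 272 CPM in mesenchymal cells (260 to 283), against 117 CPM in leukocytes (112 to 123), a log2 ratio of 1.21 (1.12 to 1.299). That ratio was 0.42 within suffix 1 and 0.34 within suffix 4, which hold 537 and 1776 of the 2450 mesenchymal cells, and 1.31 to 3.77 in the other 4 suffixes. Tgfbr1, the type I receptor that phosphorylates Smad2 and Smad3, stood at 64.3 CPM in mesenchymal cells, against 105 CPM in leukocytes (-0.71), which is under 2-fold. Its direction differed with suffix, with log2 ratios of -1.54 and -1.69 within suffixes 1 and 4 and 1.56 within suffix 6.

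Leukocyte composition varied over the suffixes, and the receptors varied over leukocyte classes. Tgfbr1 was highest in a cluster led by Mmp12, Mfge8 and Syngr1 (cluster 11, 147 cells) at 283 CPM, followed by cluster 6 at 219 CPM, alveolar macrophage-like cells at 215 CPM and C1q interstitial macrophage-like cells at 173 CPM. It was lowest in NK cell-like cells at 10.4 CPM (6 UMIs). Tgfbr2 stood at 269 CPM in cluster 6, 229 CPM in alveolar macrophage-like cells, 225 CPM in C1q interstitial macrophage-like cells and 169 CPM in cluster 11. Classical monocyte-like cells, the highest class for Tgfb1, had 36.6 CPM of Tgfbr2 and 33.0 CPM of Tgfbr1. Of the unnamed clusters, 318 of 355 cells of cluster 6 and 124 of 147 of cluster 11 came from suffix 4.

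In endothelium Tgfbr2 stood at 124 CPM, against 272 CPM in mesenchymal cells (log2 ratio -1.13, -1.37 to -0.91), and Tgfbr1 at 32.0 CPM, against 64.3 CPM in mesenchymal cells (-1.005, -1.48 to -0.56). Both lie close to the 2-fold line: leaving out suffix 3 brought each under it, as did suffix 2 or 5 for Tgfbr1. Lymphatic-like cells had 654 CPM of Tgfbr2 (58 UMIs), above large-vessel-like cells at 151 CPM by a log2 ratio of 2.11. Mural and mesothelial Tgfbr2 stood at 153 CPM (14 UMIs) and 136 CPM (70 UMIs).

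Across lineages, 9 of 10 members passed the 2-fold line between mesenchymal cells and leukocytes, 8 higher and 1 lower in mesenchymal cells. Over all 14729 genes measured there, 49.3% passed it (28.7% higher and 20.6% lower). The members' median log2 ratio was 5.35, against 0.18 over all genes. In endothelium over mesenchymal cells all 10 passed, 1 higher and 9 lower, beside 36.5% of all genes (19.2% higher and 17.3% lower), with a median of -2.21, against 0.18 over all genes. In mural over mesenchymal cells 5 passed, 2 higher and 3 lower, beside 25.6% of all genes (17.9% higher and 7.70% lower), with a median of -0.61, against 0.68. Genes without a mural UMI entered at the floor of 3 UMIs (32.7 CPM), whereas every member had mural UMIs. That floor lifts the median over all genes and limits how many can be called lower. Over genes with UMIs on both sides the median was 0.31. Without suffix 4 the mural count was 1. In mesothelial over mesenchymal cells 6 passed, 1 higher and 5 lower, beside 26.3% (12.1% higher and 14.1% lower), with a median of -0.92, against 0.06. Scaling classes by the median of ratios lowered the log2 ratios by 0.15 for mesenchymal over leukocyte, by 0.16 for endothelial over mesenchymal and by 0.12 for mural over mesenchymal cells.

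Mesenchymal cells were divided further, by clustering that left out the members and their pathway genes, into ductal myofibroblast-like (528 cells), Col13a1 fibroblast-like (595), Col14a1 fibroblast-like (692), Cdh22 Kcnk2 fibroblast-like (537) and Adh7 Bmp7 fibroblast-like cells (82). Another 16 cells formed 2 unnamed clusters. No cluster took the name of the Rbp4 Adam23 list. The Adh7 Bmp7 cluster had 4 markers of its own list among its 50 leading genes and 3 of the Rbp4 Adam23 list. Its name therefore does not set it apart from the Rbp4 Adam23 type. Each subtype was set against all other mesenchymal cells (plot of subtype ratios).

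**Figure D4:**
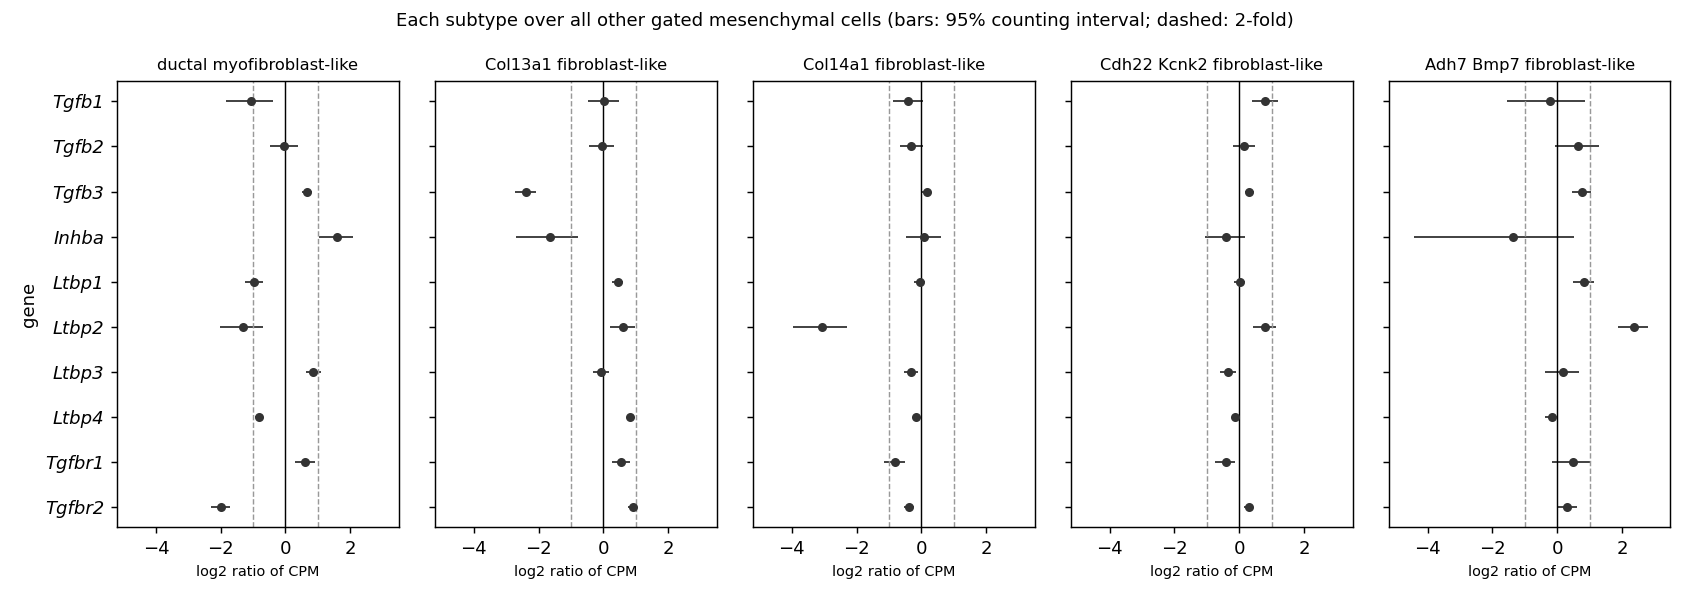
Log2 ratio of CPM (x axis) of each member (rows) in each mesenchymal subtype over all other gated mesenchymal cells, with exact 95% counting intervals as bars and the 2-fold lines dashed. Tgfbr2 in ductal myofibroblast-like cells (-2.004), Tgfb3 in Col13a1 fibroblast-like cells (-2.39), Ltbp2 in Col14a1 fibroblast-like cells (-3.06) and Ltbp2 in Adh7 Bmp7 fibroblast-like cells (2.36) lie outside those lines.

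Ductal myofibroblast-like cells had the lowest Tgfbr2 and the highest Inhba of the subtypes. Tgfbr2 stood at 77.3 CPM in them, against 310 CPM in other mesenchymal cells (log2 ratio -2.004, -2.31 to -1.72), with 81.4 CPM in suffix 1 and 76.9 CPM in suffix 4. Tgfbr1 did not follow it, at 90.2 CPM in ductal myofibroblast-like cells, against 59.1 CPM in other mesenchymal cells (0.61, 0.30 to 0.91). Tgfb3 stood at 326 CPM, against 207 CPM in other mesenchymal cells (0.66, 0.50 to 0.82, but 0.16 within suffix 1), and Ltbp3 at 165 CPM, against 90.9 CPM (0.86, 0.63 to 1.09). Inhba was at 38.7 CPM in these cells, against 12.9 CPM in other mesenchymal cells (1.58, 1.05 to 2.10), with 66.3 CPM in suffix 1 and 29.7 CPM in suffix 4. Ltbp2 (-1.32) and Tgfb1 (-1.06) were lower, and Ltbp1 (-0.97) and Ltbp4 (-0.81) were lower by less than 2-fold. In all, 4 of 10 members passed 2-fold, 1 higher and 3 lower, beside 20.6% of all genes (7.70% higher and 12.9% lower). The members' median was -0.43, against 0.02 over all genes.

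Col13a1 fibroblast-like cells had the lowest Tgfb3 and the highest Tgfbr2 of the subtypes. Tgfb3 stood at 52.2 CPM in them, against 274 CPM in other mesenchymal cells (log2 ratio -2.39, -2.72 to -2.09), and the ratio was -2.75 within suffix 1 and -2.38 within suffix 4. Tgfbr2 stood at 428 CPM, against 228 CPM in other mesenchymal cells (0.91, 0.78 to 1.04). Ltbp4 was the highest too, at 1117 CPM, against 630 CPM in other mesenchymal cells (0.83, 0.75 to 0.91). Inhba stood at 6.38 CPM (11 UMIs), against 20.2 CPM in other mesenchymal cells (-1.66), with no UMI in their 47 cells of suffix 1 and a log2 ratio of -1.38 within suffix 4. The 2 members past 2-fold, both lower, stand beside 19.8% of all genes (8.27% higher and 11.6% lower), with a median of 0.23, against 0.06.

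Col14a1 fibroblast-like cells differed in 1 member, beside 15.8% of all genes (5.42% higher and 10.4% lower), with a median of -0.31, against -0.11. Ltbp2 stood at 5.82 CPM in them (14 UMIs), against 48.7 CPM in other mesenchymal cells (log2 ratio -3.06, -3.96 to -2.29). Tgfbr1 at 42.0 CPM, against 73.9 CPM in other mesenchymal cells, was lower by less than 2-fold (-0.81). It passed 2-fold without suffix 4 (-1.29), with double-gated cells kept (-1.04) and with suffixes weighted equally (-2.10). In Adh7 Bmp7 fibroblast-like cells Ltbp2 stood at 160 CPM (47 UMIs), against 31.0 CPM in other mesenchymal cells (2.36, 1.88 to 2.82). Their Tgfb3 at 374 CPM and Ltbp1 at 272 CPM were the highest of the subtypes, each less than 2-fold above the rest (0.76 and 0.82), and Tgfb3 did not differ beyond counting error from ductal myofibroblast-like cells. Inhba rested on 2 UMIs there. These cells had 2 members past 2-fold, 1 each way, beside 16.0% of all genes (7.21% higher and 8.82% lower), with a median of 0.39, against 0.08. Cdh22 Kcnk2 fibroblast-like cells had none, beside 9.34% (2.59% higher and 6.75% lower), with a median of 0.08, against -0.08. That held over all suffixes: without suffix 4 their Inhba was lower (-2.96), as within suffix 1 (-2.65, on 1 UMI), whereas within suffix 4 it was 0.03. Equal weights (-1.31) and keeping double-gated cells (-1.02, with Ltbp2 at 1.07) also brought members past 2-fold. Their Tgfb1 was the highest of the subtypes at 40.0 CPM, against 22.8 CPM in other mesenchymal cells (0.81, 0.40 to 1.21), but the ratio was -0.84 within suffix 1 and 0.94 within suffix 4. Tgfb2 hardly separated the subtypes, at 37.9 to 67.9 CPM.

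The genes that release or anchor latent TGF-beta followed the lineages. Of 14 measured, 9 were higher and 4 lower in mesenchymal cells over leukocytes. Each list count here and below stands beside the shares over all genes given above, which are 28.7% higher and 20.6% lower for this comparison. Fbn1 (fibrillin-1, to which the binders attach) stood at 268 CPM in mesenchymal cells, against 1.15 CPM in leukocytes (7.86), and Itgb8, a subunit of an activating integrin, at 27.0 CPM, against 0.865 CPM in leukocytes (4.96). Nrros, a cell-surface anchor of latent TGF-beta1 in macrophages and microglia, stood at 1.38 CPM in mesenchymal cells, against 70.2 CPM in leukocytes (-5.67). In endothelium Nrros stood at 74.2 CPM, against 1.38 CPM in mesenchymal cells (5.75). That level includes the Sftpc-led and B cell-like clusters of the endothelial gate, and their part in it was not tested. In endothelium over mesenchymal cells 2 of 13 measured genes were higher and 6 lower. Among the lower was Thbs1 (-4.68), which encodes an activator of latent TGF-beta. In ductal myofibroblast-like cells 1 of 13 was higher and 5 lower. Thbs1 stood at 1044 CPM in these, against 353 CPM in other mesenchymal cells (1.57), and Lrrc32, another anchor, at 0.758 CPM (1 UMI), against 54.9 CPM (-6.18). In Col14a1 fibroblast-like cells Thbs1 stood at 99.8 CPM, against 626 CPM in other mesenchymal cells (-2.65). Cdh22 Kcnk2 fibroblast-like cells had Lrrc32 at 80.9 CPM, against 32.8 CPM (1.302), and Itgb8 at 47.4 CPM, against 19.3 CPM (1.29).

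Co-receptors and other receptors of the family were higher in mesenchymal cells than in leukocytes in 8 of 9 cases and lower in none. Tgfbr3 (betaglycan, which presents Tgfb2) stood at 158 CPM in mesenchymal cells, against 2.77 CPM in leukocytes (5.84). Endothelium was higher in 5 of 9 and lower in none. Eng, the endothelial co-receptor endoglin, stood at 898 CPM in endothelium, against 47.6 CPM in mesenchymal cells (4.24), and Acvrl1, its type I partner, at 831 CPM, against 64.2 CPM in mesenchymal cells (3.69). Mural cells were higher in 4 of 9, with Eng at 284 CPM, against 47.6 CPM in mesenchymal cells (2.58). In ductal myofibroblast-like cells, where Tgfbr2 was low, 1 of 9 was higher (Bambi, a pseudoreceptor, 1.15) and 1 lower (Acvrl1, -1.43).

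Of the inhibin and activin modulators, 5 of 5 measured were higher in mesenchymal cells than in leukocytes, led by Fstl1 (6.96). Fst, the activin-binding protein follistatin, stood at 39.9 CPM in Col14a1 fibroblast-like cells, against 3.60 CPM in other mesenchymal cells (3.47), and at 4.55 CPM in ductal myofibroblast-like cells, against 16.5 CPM (-1.86). Mural cells had 120 CPM of Fst, against 14.6 CPM in mesenchymal cells (3.04). Of 11 Smad transducers and inhibitors, 3 were higher and 1 lower in mesenchymal cells over leukocytes, below those shares. In endothelium 4 of 11 were higher and 2 lower than in mesenchymal cells. The inhibitory Smad6 stood at 469 CPM there, against 18.8 CPM in mesenchymal cells (4.64), and Smad3 at 1.46 CPM, against 36.5 CPM (-4.65). In the subtypes 0 to 2 of 11 passed 2-fold, beside 9.34 to 20.6% of all genes.

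The proteoglycans that bind TGF-beta (Dcn, Bgn and Fmod) were all higher in mesenchymal cells than in leukocytes. Dcn (decorin) stood at 6110 CPM in Col14a1 fibroblast-like cells, against 764 CPM in other mesenchymal cells, and at 72.0 CPM in Col13a1 fibroblast-like cells, against 3014 CPM (-5.39). Of 12 genes known as TGF-beta targets, 8 were higher and none lower in mesenchymal cells over leukocytes, and endothelium was higher in 1 and lower in 9 than mesenchymal cells. In ductal myofibroblast-like cells 6 were higher and 3 lower: the contractile genes Acta2 and Tagln stood at 528 and 1250 CPM, against 54.0 and 156 CPM in other mesenchymal cells (3.29 and 3.004), and the matrix gene Fn1 at 15.9 CPM, against 486 CPM (-4.93). Col13a1 fibroblast-like cells had 3 higher and 3 lower, with Tnc at 73.1 CPM, against 7.85 CPM (3.22), and Fn1 at 1022 CPM, against 239 CPM (2.10). Mural cells had 3 higher and 7 lower, with Postn at 1408 CPM, against 8.03 CPM in mesenchymal cells (7.45). Target genes here mark differences between cell types and are no readout of signalling.

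Over the 26 classes of 50 or more cells, the genes most like each member were found by Pearson's r of log2(CPM + 10) among 11482 genes. These classes share their libraries, and the r values are descriptions. Tgfb1 was most like Nrros (r = 0.91), Tgfb3 like Clip3 (0.99), Fxyd6 (0.98) and Sfrp1 (0.98), and Tgfb2 like Pter (0.90). Ltbp4 was most like Bgn (0.99) and the elastin gene Eln (0.99), and Ltbp1 like Eln (0.92) and Plat (0.92). Ltbp2 was most like 1810041L15Rik (0.96) and Lrat (0.96), and Ltbp3 like Gstt1 (0.96). Inhba was most like Wnt5a (0.96). The receptors had the lowest best r, with Tgfbr1 most like Ctsb (0.89), Lipa (0.87) and Ctns (0.87), and Tgfbr2 most like Nrp2 (0.88).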

How the data were processed

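The authors deposited raw UMI counts per gene and barcode and, separately, a normalized signal table on a linear scale, in which every barcode sums to 2631.5. The deposited signal values equal the counts scaled to that total, with a largest gap of 4.775e-12, and served only as an alternative. The genome was mm10 and the tools named are Cell Ranger 1.3.0 and STAR 2.5.1, per the submitters' processing notes. Whether counting used strand is not stated there.

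Of 10410 barcodes, 318 with fewer than 500 genes and 105 with over 10% of UMIs mitochondrial were left out, and the kept cells had a median of 2718 UMIs. Cells were gated by lineage and clustered within a lineage after scaling to 10000 UMIs, on 2000 variable genes, 30 components and 15 neighbours (Leiden method, resolution 0.8; scanpy 1.11.5, leidenalg 0.10.2, scipy 1.17.1, Python 3.11.15), without the members and pathway genes. A cluster took a list's name with 3 or more of its markers among the 50 leading genes and more of them than of any other list among the top 10. Doublets were treated by setting double-gated cells aside, with exceptions. Mural or mesothelial cells that also passed the mesenchymal gate counted as mural or mesothelial. Cells of the leukocyte and endothelial gates without a Cdh5 UMI counted as leukocytes. Scrublet called 75 (0.750%), removed as an alternative. Genes that are not members were named by size: up to 3 highest and 3 lowest past 2-fold per list and comparison, and the 3 most like a member. The members, gates and lists were chosen with earlier results of these data known. Of 59 pathway symbols 57 were in the table. The ratio and its interval were tested on simulated data for mesenchymal over leukocyte (11174 genes). There, 198 of 200 changed genes were called the right way, and 95.4% of intervals covered the true ratio. The simulated counts were Poisson draws, the model behind the interval, without spread between suffixes or cells. Coverage near 95% was thus built in, and it checks the calculation and not the spread in these data.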

Additional observations from a re-analysis of the deposited data

How the results depend on the processing

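No paired analysis was possible because the barcodes are not tied to labelled samples and each labelled group has 1 sample. Of 1590 alternative values for 90 member ratios, 1455 lay within the counting interval of the main ratio, 134 moved outside it and 1 reversed. Lying within that interval does not mean that a 2-fold call was kept. Raising the minimum to 30 UMIs changes only which genes can be called and not the ratios. Its values therefore lay within the interval by construction. The reversed value was Inhba in Adh7 Bmp7 fibroblast-like over other mesenchymal cells. It was 2.15 without suffix 4, against -1.37 over all suffixes (leaving out 1 suffix each gave -1.39 to 2.15). Both Inhba UMIs of that subtype lie in suffix 4, so 2.15 is the floor of 3 UMIs set against a count of 0 and no measured reversal. Of 39 ratios past 2-fold, 26 stayed past it under every alternative run. Without suffix 4 the count of members past 2-fold in mural over mesenchymal cells was 1, against 5 over all suffixes (leaving out 1 suffix each gave 1 to 6). The counts of the other lineage comparisons and of all 5 subtypes summed (7 to 12, against 9) stayed within 1.5 times. Counts of single subtypes moved more, as given for Col14a1 and Cdh22 Kcnk2 fibroblast-like cells. Other subtype ratios given above as under 2-fold also passed it under some alternatives. In ductal myofibroblast-like cells these were Ltbp3 (log2 ratios 0.73 to 1.17) and Ltbp1 (-1.03 to -0.83). In Col13a1 fibroblast-like cells they were Tgfbr2 (0.81 to 1.18) and Ltbp2 (0.20 to 1.43), and in Adh7 Bmp7 fibroblast-like cells Ltbp1 (0.48 to 1.48). Calls lost under some alternatives were Tgfbr1 and Tgfbr2 in endothelium (log2 ratios -1.28 to -0.59 and -1.74 to -0.95), Tgfb1, Tgfb2, Tgfbr2 and Ltbp2 in mesothelium (Tgfb2 0.37 to 2.25), Tgfb2, Tgfb3, Ltbp1 and Ltbp4 in mural cells, Inhba in Adh7 Bmp7 fibroblast-like cells, and Tgfb1 and Ltbp2 in ductal myofibroblast-like cells. The cause was not tested. Without the cell filter not all 5 subtypes were found again, so that setting has no subtype count. Leaving out the Sftpc-led and B cell-like clusters of the endothelial gate was chosen after seeing the data. The 46 mural and 99 mesothelial cells limit what is detectable in those classes.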
